A study of Mus musculus with 9 samples.

Results

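A group of 9 genes used to mark macrophages that derive from blood monocytes were followed across F4/80+ CD11b+ cells sorted from mouse liver. The members are Lyz2, Lyz1, Ly6c2, F13a1, Plac8, Fn1, Chil3, Hp and Vcan. They were found by symbol in the deposited table, where all 9 symbols occupied 8 of 59445 features, because Lyz2 and Lyz1 share 1 feature. All 8 features passed the filter on low values (at least 10 normalized reads in at least 4 libraries), as did 15288 features in all. RNA was sequenced from cells of male C57BL/6 mice that had received 1 dose of the liver toxin CCl4 (carbon tetrachloride) into the peritoneum 24 hours earlier, labelled as 0.6 mg/kg. The 4 control libraries (S1, S3, S4 and S5) came from mice labelled MAGL fl/fl (WT), all 11 weeks old. The other 5 (S8 to S12) came from mice labelled MAGL Mye-/-, of which S9, S10 and S11 were 10 weeks old and S8 and S12 were 11 weeks old. Both genotypes received CCl4, and no uninjured liver was analysed here. MAGL is monoacylglycerol lipase, the enzyme encoded by Mgll, and the comparison asks how its loss in myeloid cells bears on liver macrophages after acute injury. The Cre driver of the myeloid deletion is not given in the sources used here. In LysM-Cre mice, a strain often used for myeloid deletion, Cre is inserted into Lyz2 and interrupts that copy, so such an allele and any other genotype difference in the lysozyme feature cannot be told apart.

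The resident macrophages of the liver, the Kupffer cells, are partly lost after toxic injury, and Ly6C-high monocytes enter the tissue from blood and turn into macrophages there. Freshly arrived cells still carry transcripts of the blood monocyte, among them surface Ly6C, secreted antimicrobial proteins and proteins of the clotting and wound matrix, and these fade as the cells mature. Several of these genes are not confined to monocytes. Hp and Fn1 are plasma proteins of hepatocytes, F13a1 is found in platelets, Vcan in stromal cells, and Chil3, Hp and lysozyme in cells of the neutrophil lineage.

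The following coding sequences are shown because they bear on which gene a read can be assigned to. They are bases 1 to 120 of the coding sequence, counted from the start codon, from GENCODE M21 transcripts (GRCm38, the assembly of mm10, all on the minus strand), and capitals mark the bases at which the 2 genes of a pair differ.
Lyz2: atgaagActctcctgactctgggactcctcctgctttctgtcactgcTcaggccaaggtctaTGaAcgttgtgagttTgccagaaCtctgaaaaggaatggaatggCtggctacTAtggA
Lyz1: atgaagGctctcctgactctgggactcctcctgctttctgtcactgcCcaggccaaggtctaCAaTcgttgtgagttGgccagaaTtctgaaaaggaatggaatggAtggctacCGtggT
Ly6c2: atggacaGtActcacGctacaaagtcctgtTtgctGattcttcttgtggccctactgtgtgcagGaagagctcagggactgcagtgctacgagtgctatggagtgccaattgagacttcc
Ly6c1: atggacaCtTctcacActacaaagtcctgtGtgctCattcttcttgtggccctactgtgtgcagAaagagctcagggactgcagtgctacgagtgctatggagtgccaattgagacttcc

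Lyz2, the lysozyme of macrophages, and Lyz1, the lysozyme of Paneth cells of the gut, were identical at 422 of 444 coding bases, with a longest identical run of 118 bases. The deposited table gives them as 1 feature, so their reads could not be separated. Ly6c2 and Ly6c1 were identical at 384 of 393 coding bases, with a longest identical run of 188 bases. The table lists these apart, with Ly6c1, the paralog of endothelial and other cells, at 0 to 35.5 normalized reads in the 9 libraries against 9117 to 13986 for Ly6c2. Chil3 and Chil4 were identical over 94.4% of 1206 aligned coding positions, and Chil4 was at 28.9 to 167 normalized reads where Chil3 was at 201204 to 406822. How reads that fit both genes of a pair were counted was not found in the sources used here. The values of Ly6c2 and Chil3 may therefore hold some reads of their paralogs.

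The libraries held 33383559 to 46489349 reads, and mitochondrial features took 3.49% to 9.45% of them, most in fl/fl S3. Values are read counts divided by 1 size factor per library, called normalized reads here, and are not corrected for gene length. Itgam (CD11b) was at 41570 to 55474 and Adgre1 (F4/80) at 4685 to 7801 normalized reads, and neither separated the genotypes. Mgll ranged from 0 to 106.5 among fl/fl libraries and from 0 to 46.6 among Mye-/- ones, too low to check the labels. The labels do not say that each library came from its own mouse, and p-values measure the spread between these libraries only.

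Reads of monocyte-derived macrophage genes were present in every library, and limma called none of these genes different between the genotypes. Under limma with Benjamini-Hochberg adjustment over all 15288 features, 0 of the 8 member features passed an adjusted p of 0.05, against 0.0196% of all features (3 of 15288). The lysozyme feature, Hp and Ly6c2 were each lower in Mye-/- libraries at an unadjusted p under 0.05. These 3 of 8 compare with 4.13% of all features that were lower at that level, and with 10.5% in either direction. All 8 members average at least 500 normalized reads. Of the 7198 features that do, 517 were lower at that level, and 1075 counting either direction. By sign alone 7 of the 8 were lower and Plac8 was higher, against 45.4% of all features lower and 3615 of those 7198. The median log2 fold change over the 8 was -0.16, against 0.06 over all features tested and -0.001 over those 7198. On whole reads recovered from the values, edgeR called 0 of the 8 (0.0131% of all features), while DESeq2 called the lysozyme feature and Hp as lower (0.811% of all features in either direction, 0.432% lower). The members were chosen with earlier results of these data known, so these counts beside the shares of all features are descriptions. In cells sorted in bulk, fewer cells of a type and less RNA per cell cannot be told apart.

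**Figure D1:**
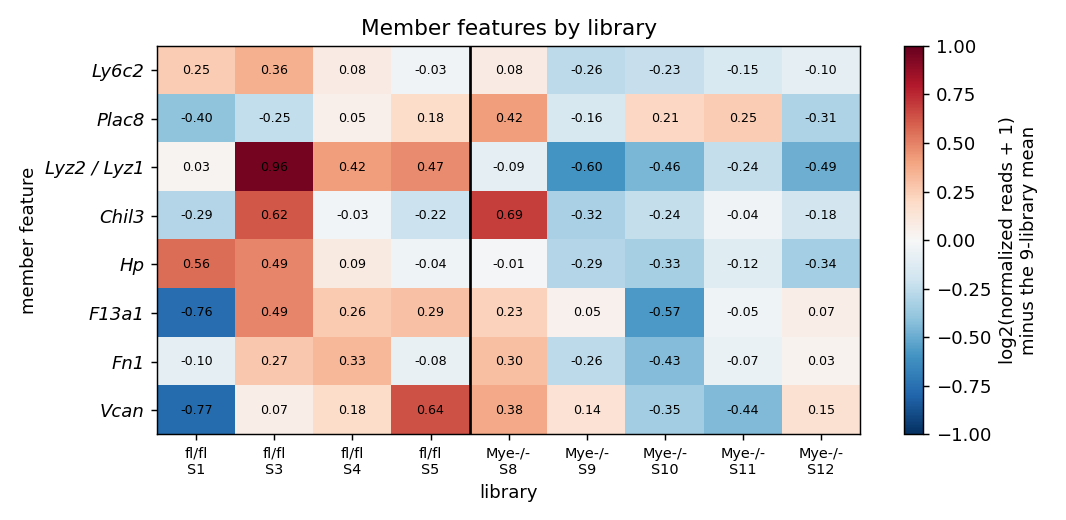
Each cell gives log2(normalized reads + 1) of a member feature (rows) in a library (columns), minus that feature's mean over the 9 libraries, with 4 fl/fl libraries left of the line and 5 Mye-/- libraries right of it. Lysozyme is the row in which every Mye-/- value lies below every fl/fl value, and fl/fl S3 at 0.96 is its highest.

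Ly6c2 encodes Ly6C, the surface glycoprotein whose high level defines classical monocytes in mice. Its feature (chromosome 15, 75108158 to 75111971, mm10, minus strand) was at 12996, 13986, 11574 and 10653 normalized reads in the fl/fl libraries (S1, S3, S4, S5). In Mye-/- S8 to S12 it was at 11551, 9117, 9294, 9812 and 10198. The groups overlapped through 1 library, Mye-/- S8, while the other 4 Mye-/- values lay below every fl/fl value. Means were 12302 ± 1480 for fl/fl (SD, n = 4) against 9994 ± 969 for Mye-/- (SD, n = 5), and the log2 fold change was -0.30 ± 0.13 (SE, limma adjusted p = 0.438). That is 0.814-fold, with a 95% interval from 0.675 to 0.982. Ly6c2 had the smallest coefficient of variation of the members in each genotype, at 9.70% in Mye-/-.

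Plac8 encodes a small cysteine-rich protein found in classical monocytes and in several lymphoid and dendritic cells. Its feature (chromosome 5, 100553733 to 100572225, minus strand) was at 128795, 143308, 175693 and 192633 in the fl/fl libraries and at 227361, 151993, 196356, 202331 and 137469 in Mye-/- S8 to S12. Mye-/- S8, S10 and S11 lay above every fl/fl value, and S9 and S12 lay within the fl/fl range. Means were 160107 ± 29232 for fl/fl (SD, n = 4) against 183102 ± 37264 for Mye-/- (SD, n = 5), with a log2 fold change of 0.19 ± 0.20 (SE, limma adjusted p = 0.778). The 95% interval ran from 0.853-fold to 1.52-fold. Plac8 was the member feature with a higher mean in Mye-/- libraries, and without fl/fl S1 and S3 its log2 fold change was -0.03. The summed value of 16 lymphoid and dendritic markers was 480 to 1220 in fl/fl and 889 to 1808 in Mye-/- libraries. All 7 that passed the filter were higher in Mye-/-, against 8353 of 15288 features, with 0 past limma's threshold. Several were at 0 in some libraries, where the sign of a log2 fold change follows which libraries hold reads. Features above 0 numbered 14240 to 16385 in fl/fl and 15614 to 16802 in Mye-/- libraries. With that number as a covariate, 7606 of 15288 features were higher, so the share of all features is a weak yardstick for such genes. The part of such cells in the Plac8 values was not tested.

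Lysozyme cuts the peptidoglycan of bacterial cell walls, and its transcript is among the most abundant of monocytes and macrophages. The joint Lyz2 and Lyz1 feature (chromosome 10, 117277334 to 117292868, minus strand) was at 221530, 422118, 290262 and 301765 normalized reads in the fl/fl libraries (S1, S3, S4, S5). In Mye-/- S8 to S12 it was at 204782, 143570, 158053, 184054 and 154677. All 5 Mye-/- values lay below all 4 fl/fl values, with Mye-/- S8 close under fl/fl S1. A separation in this direction was seen in 1 of the 8 member features and in 1.6% of all features tested, and the opposite separation in 0 of the 8 and in 1.7%. Of the 7198 features that average at least 500 normalized reads, 191 were separated in this direction and 145 in the opposite one. Means were 308919 ± 83367 for fl/fl (SD, n = 4) against 169027 ± 24893 for Mye-/- (SD, n = 5), a ratio of 0.547. The log2 fold change was -0.84 ± 0.21 (SE), or 0.557-fold with a 95% interval from 0.412 to 0.754, and ranked 48th of 15288 by p (limma adjusted p = 0.218). DESeq2 gave -0.87 (adjusted p = 4.31e-05) and edgeR -0.86 (adjusted p = 0.0860). Over 25 alternative fits the log2 fold change ran from -0.99 to -0.66 and the adjusted p from 4.31e-05 to 0.976, and DESeq2 alone passed the threshold.

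Chil3 encodes Ym1, a secreted chitinase-like lectin made by monocytes, alternatively activated macrophages and immature neutrophils. Its feature (chromosome 3, 106147554 to 106167564, minus strand) was at 205825, 387736, 247087 and 216422 in the fl/fl libraries and at 406822, 201204, 213391, 245744 and 222021 in Mye-/- S8 to S12. One library of each genotype stood far above the rest, fl/fl S3 and Mye-/- S8, and the other 7 lay between 201204 and 247087. Means were 264267 ± 84151 for fl/fl (SD, n = 4) against 257837 ± 84865 for Mye-/- (SD, n = 5), with a log2 fold change of -0.04 ± 0.24 (SE, limma adjusted p = 0.972). The 95% interval ran from 0.682-fold to 1.39-fold. Its sign turned in 10 of the 25 alternative fits, to between 0.00 and 0.23.

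Hp encodes haptoglobin, the acute-phase protein that binds free haemoglobin. Its feature (chromosome 8, 109575128 to 109579172, minus strand) was at 77635, 73959, 56243 and 51192 in the fl/fl libraries (S1, S3, S4, S5). In Mye-/- S8 to S12 it was at 52383, 42999, 41983, 48391 and 41645. As with Ly6c2, Mye-/- S8 alone reached into the fl/fl range, and the other 4 lay below it. Means were 64757 ± 13000 for fl/fl (SD, n = 4) against 45480 ± 4723 for Mye-/- (SD, n = 5), and the log2 fold change was -0.49 ± 0.16 (SE, limma adjusted p = 0.294), or 0.710-fold with a 95% interval from 0.567 to 0.890. DESeq2 gave -0.51 (adjusted p = 0.0191) and edgeR -0.50 (adjusted p = 0.322). The adjusted p ran from 0.0191 to 0.976 over the 25 alternatives, and without fl/fl S1 and S3 the log2 fold change was -0.24.

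Other cell types that carry Hp, Chil3 or lysozyme reads were checked by their markers. The summed value of 16 neutrophil markers was 57374 to 70342 in fl/fl and 31556 to 55186 in Mye-/- libraries, lower in every Mye-/- library. S100a8, S100a9 and Lcn2 made up 53.3% to 81.7% of it, and the sum of the other 13 markers overlapped, at 12051 to 19798 in fl/fl and 14747 to 18713 in Mye-/-. Those 3 are the markers that were lower at an unadjusted p under 0.05, so the split follows the result. The overlap of the rest therefore cannot decide whether neutrophil transcripts differed. Of the 9 neutrophil markers that passed the filter 3 were higher and 6 lower, with 0 past limma's threshold and 4 at an unadjusted p under 0.05, of which 3 were lower and 1 higher. Over all features 10.5% reached that level in either direction, and 4.13% were lower. The 3 lower ones, S100a8, S100a9 and Lcn2, which encode calprotectin subunits and lipocalin 2 and are shared with monocytes, averaged 30191 ± 8906, 5906 ± 1444 and 11243 ± 1974 for fl/fl (SD, n = 4). For Mye-/- the means were 17455 ± 6352, 2841 ± 2327 and 6357 ± 900 (SD, n = 5). The log2 fold change of Lcn2 was -0.82 (limma adjusted p = 0.0608, DESeq2 adjusted p = 7.84e-05). The higher one was Csf3r, the receptor for granulocyte colony-stimulating factor, at 3239 ± 725 for fl/fl against 4390 ± 673 for Mye-/- (log2 fold change 0.46, limma adjusted p = 0.361). Ly6g, which defines neutrophils, was listed at 1.19 in fl/fl S3 and at 0 in the other 8 libraries. Stfa2l1 was at 0 in all 9, and Mmp8 was at 5122 ± 1624 and 5170 ± 1681. The summed value of 17 hepatocyte marker features was 966 to 2482 in fl/fl and 2005 to 15605 in Mye-/-, and these ranges overlapped. It was highest in S10, where Alb was at 7085 and Hp at 41983, and at 3117 or less in every other library. The part of neutrophil transcripts in the lysozyme, Hp and Ly6c2 values, and that of hepatocyte transcripts in the Hp values, was not tested.

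**Figure D2:**
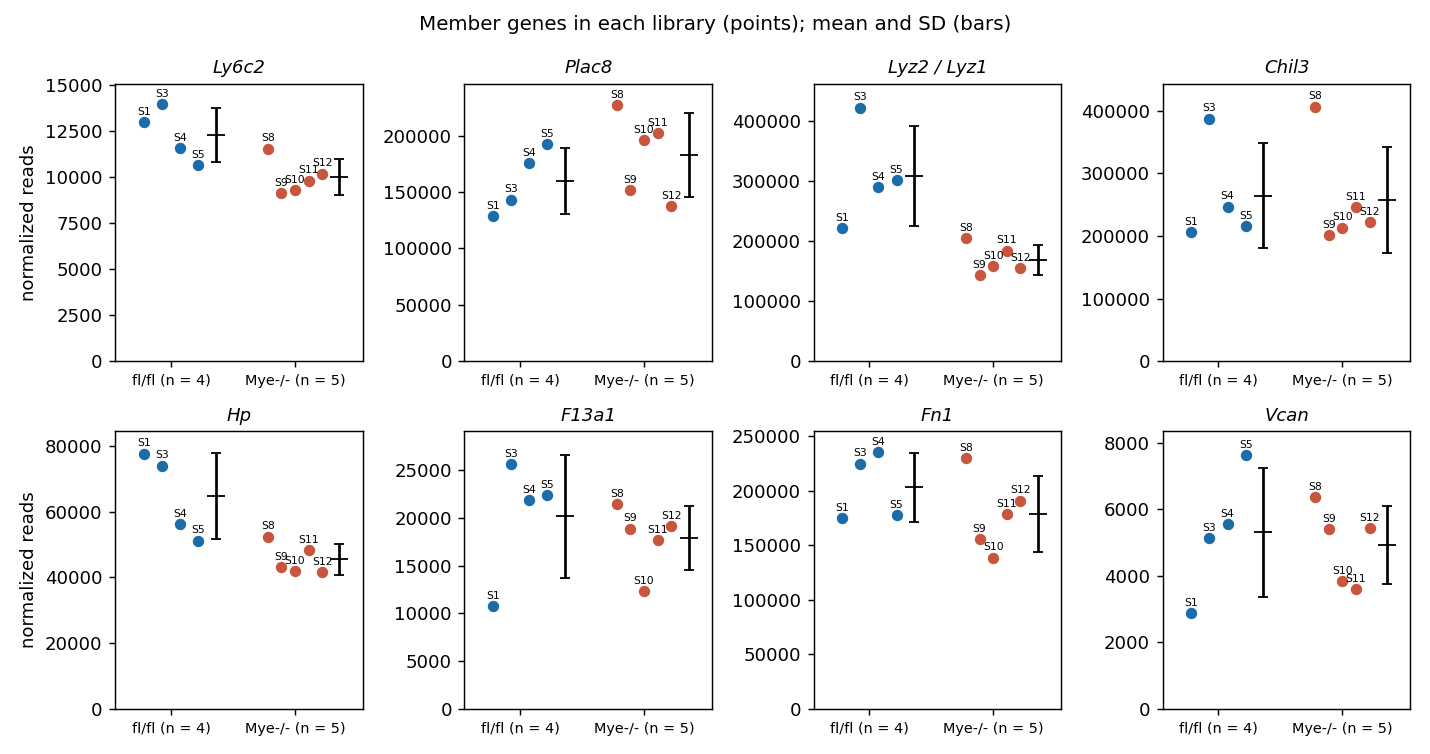
Each panel plots 1 member feature, with normalized reads on a linear axis from 0, 1 labelled point per library (fl/fl blue, Mye-/- red), and the mean with its SD as the bar beside each group. Lysozyme, Hp and Ly6c2 lie lower in Mye-/- libraries, while in Chil3 the libraries S3 and S8 stand above all others.

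F13a1 encodes the A subunit of coagulation factor XIII, the transglutaminase that crosslinks fibrin and is made by monocytes and megakaryocytes. Its feature (chromosome 13, 36867178 to 37050244, minus strand) was at 10793, 25621, 21885 and 22404 in the fl/fl libraries and at 21447, 18891, 12322, 17724 and 19166 in Mye-/- S8 to S12. Fl/fl S1 and Mye-/- S10 were the 2 lowest libraries, and the groups overlapped. Means were 20176 ± 6470 for fl/fl (SD, n = 4) against 17910 ± 3403 for Mye-/- (SD, n = 5), with a log2 fold change of -0.12 ± 0.21 (SE, limma adjusted p = 0.870) and a 95% interval from 0.675-fold to 1.25-fold. It was 0.02 without fl/fl S3, 0.01 without Mye-/- S10 and -0.40 without fl/fl S1. The summed value of 7 platelet markers was 107 to 435 in fl/fl and 323 to 475 in Mye-/- libraries. All 4 that passed the filter were higher in Mye-/-, against 8353 of 15288 features, with 0 past limma's threshold. Most of them were at 0 in some libraries, so the limit given for the lymphoid and dendritic markers applies here too. The part of platelets in the F13a1 values was not tested.

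Fn1 encodes fibronectin, an adhesive protein of the provisional matrix of wounds. Its feature (chromosome 1, 71585473 to 71653234, minus strand) was at 174714, 224906, 235242 and 177337 in the fl/fl libraries and at 230040, 155501, 138673, 178278 and 191079 in Mye-/- S8 to S12. Mye-/- S9 and S10 lay below every fl/fl value, and Mye-/- S8 lay near the highest of them. Means were 203050 ± 31507 for fl/fl (SD, n = 4) against 178714 ± 35106 for Mye-/- (SD, n = 5). The log2 fold change was -0.19 ± 0.19 (SE, limma adjusted p = 0.763), and its 95% interval ran from 0.660-fold to 1.16-fold. It was -0.11 without Mye-/- S10, -0.12 without fl/fl S4 and -0.29 without Mye-/- S8.

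Vcan encodes versican, a large chondroitin sulfate proteoglycan that human and mouse classical monocytes express. Its feature (chromosome 13, 89655310 to 89742512, minus strand) was at 2882, 5146, 5563 and 7638 in the fl/fl libraries and at 6374, 5409, 3849, 3609 and 5438 in Mye-/- S8 to S12. The fl/fl libraries spanned both the lowest value (S1) and the highest (S5), so every Mye-/- value fell between them. Means were 5307 ± 1950 for fl/fl (SD, n = 4) against 4936 ± 1171 for Mye-/- (SD, n = 5), with a log2 fold change of -0.06 ± 0.23 (SE, limma adjusted p = 0.954) and a 95% interval from 0.691-fold to 1.34-fold. Markers of stellate and endothelial cells, 14 features in sum, were at 556 to 1467 in fl/fl and 379 to 815 in Mye-/- libraries. The collagen genes among them did not pass the filter. Of the 6 that did, 3 were higher and 3 lower, against 8353 of 15288 features higher, with 0 past limma's threshold. The part of such cells in the Vcan values was not tested.

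**Figure D3:**
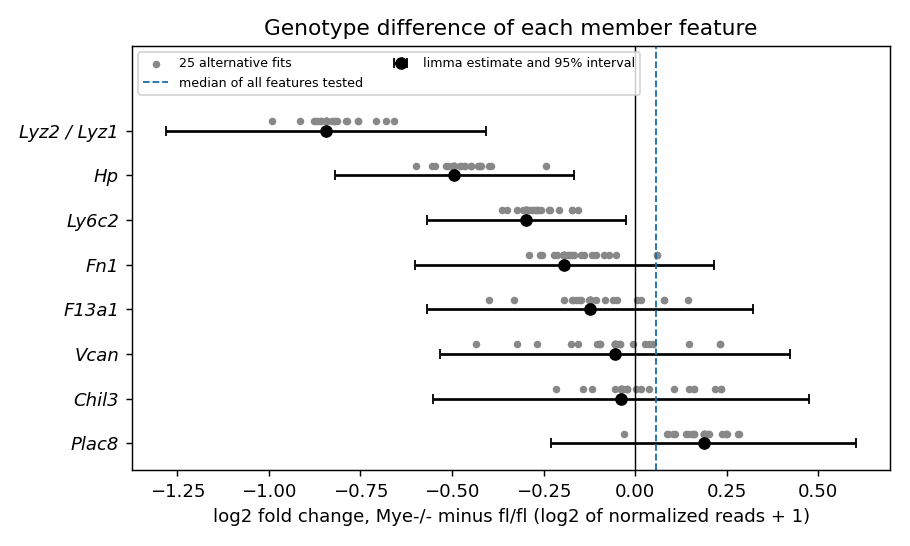
Black points are limma log2 fold changes (Mye-/- minus fl/fl, log2 of normalized reads + 1) with 95% intervals, grey points the same value in 25 alternative fits, and the dashed line the median of all features tested (0.06). The intervals of lysozyme, Hp and Ly6c2 lie below 0, and those of the other 5 features include 0.

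Age was partly tied to genotype. Among 11-week-old mice (4 fl/fl against 2 Mye-/-), the log2 fold changes of lysozyme, Hp and Ly6c2 were -0.76, -0.45 and -0.17, and 0 of the 8 features had an unadjusted p under 0.05 under limma. Those of Fn1, F13a1, Vcan and Chil3 turned to 0.06, 0.08, 0.23 and 0.23 in that subset. A limma fit to all 9 libraries with age in the model gave the same log2 fold changes. It had to, because all fl/fl mice were 11 weeks old and age varied only among Mye-/- mice. In that fit 2 of the 8 had an unadjusted p under 0.05, lysozyme (0.0159) and Hp (0.0481), against 720 of 15288 features. The limma adjusted p was 0.939 for both. Within Mye-/- libraries, the mean of Chil3 was 220113 in the 3 younger mice and 314422 in the 2 older ones, of which S8 held the high value. The mean of lysozyme was 161892 and 179729. A limma fit without the 2 libraries that stood apart (fl/fl S3 with the most mitochondrial reads, Mye-/- S10 with the most hepatocyte reads) gave 4 of 8 member features lower, a median log2 fold change of -0.01 and -0.66 for lysozyme.

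Per kilobase of transcript, which allows levels to be compared between genes, Chil3, Plac8 and lysozyme were the highest and Vcan the lowest in both genotypes, and the order of the first 3 depended on the length taken for lysozyme. For the longest protein-coding transcript, Chil3 averaged 171714 ± 54679 normalized reads per kb for fl/fl (SD, n = 4) against 167535 ± 55143 for Mye-/- (SD, n = 5). Plac8 followed with 130807 ± 23882 and 149593 ± 30444, and lysozyme with 119782 ± 32325 and 65540 ± 9652. The lengths of Lyz2 and Lyz1 were added for that value, so it is a lower limit if reads came from 1 of them. With the length of Lyz2 alone (1316 bases), lysozyme averaged 234741 ± 63349 per kb for fl/fl, above Chil3 in 4 of 4 libraries, and 128440 ± 18916 for Mye-/-, below Chil3 in all 5 and below Plac8 on average. The order then differed between the genotypes. Next were Hp (48147 ± 9666 and 33814 ± 3511), Fn1 (24420 ± 3789 and 21493 ± 4222) and Ly6c2 (14966 ± 1800 and 12159 ± 1179). F13a1 was at 5105 ± 1637 and 4532 ± 861, and Vcan, the longest of them, at 427 ± 157 and 397 ± 94.2. Chil3 exceeded Plac8 in 6 of 9 libraries, so these neighbours were not apart beyond their spread. With the lengths of Lyz2 and Lyz1 added, the per kb ranges of Plac8 and lysozyme and of lysozyme and Hp also overlapped across libraries. Those of Fn1 and Ly6c2 did too. Within libraries, Plac8 exceeded lysozyme in 8 of 9, and lysozyme exceeded Hp and Fn1 exceeded Ly6c2 in 9 of 9. With the longest transcript as the length, the ranges of Hp and Fn1, Ly6c2 and F13a1, and F13a1 and Vcan did not overlap. With the union of annotated exons as the length the order was that of the summed lengths, but this leaves the length of lysozyme as it was and does not check its place. Over the 9 libraries the union lengths took Ly6c2 from 13406 to 4022 per kb and F13a1 from 4787 to 2807. Whether the ranges of these neighbours stay apart at the union lengths was not tested.

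**Figure D4:**
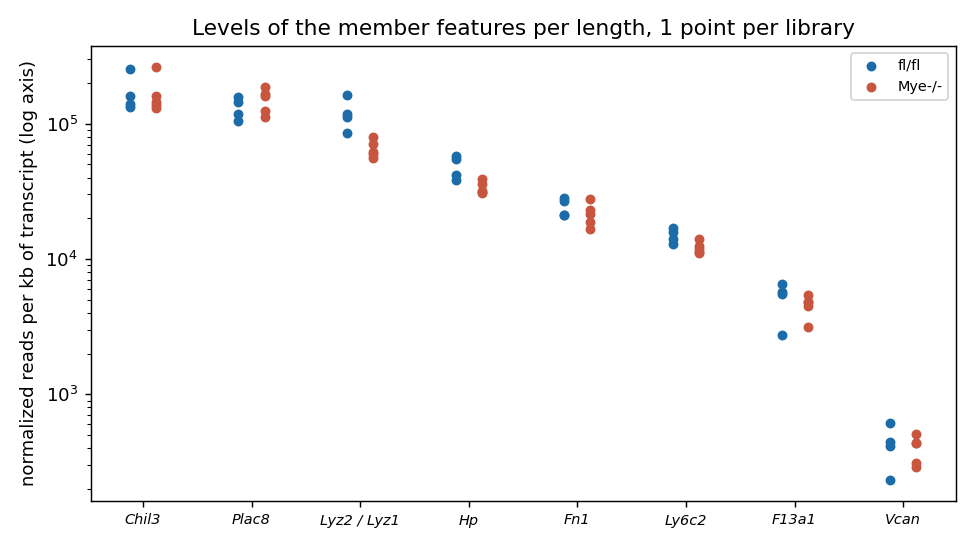
Normalized reads per kb of the longest protein-coding transcript are plotted on a log axis, with 1 point per library and the genotypes side by side in colour. Lysozyme (lengths of Lyz2 and Lyz1 added) shows the gap between genotypes, with fl/fl at 119782 and Mye-/- at 65540 on average.

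The members did not vary as a single block. Fl/fl S3 held the highest value of 3 of the 8 features (lysozyme, F13a1 and Ly6c2), while fl/fl S1 held the lowest of 3 (Plac8, F13a1 and Vcan) and the highest of Hp. Mye-/- S8 lay above the 9-library mean in 6 of 8 features, and the other Mye-/- libraries in 1 to 3. After each genotype's mean was subtracted, the Pearson r over the 9 libraries was 0.87 for Chil3 with lysozyme, 0.85 for Hp with Ly6c2, 0.82 for F13a1 with Vcan and -0.54 for Hp with Vcan. When each library was left out in turn these ran from 0.77 to 0.92, 0.77 to 0.90, 0.53 to 0.88 and -0.80 to -0.22. Of the 28 pairs 23 were positive, with a median of 0.41. These values are descriptions over 9 libraries that share their scaling, and were not tested.

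By the same measure, the genes most alike were ranked among 6762 other features that have a gene symbol and average 500 normalized reads or more. The best match of lysozyme was Tyrobp, an adaptor of myeloid receptors (r = 0.99), then Rbbp4 and Cct4. That of Hp was Helb (0.99), then Rps4x and Mrpl18, and that of Ly6c2 was Atp6v1f (0.95), then Plrg1 and Rplp0. For Chil3 they were Ndufs8 (0.97), Lrch3 and Ms4a8a, and for Plac8 Tomm7 (0.95), Dopey2 and Gm14326. F13a1 was closest to Smarcad1 (0.98), Msr1, the scavenger receptor A of macrophages, and Bzw1. Fn1 was closest to Nt5c3 (0.98), Srp72 and Tmem167, and Vcan to Iqsec2 (0.97), Srpk1 and Mrpl12. With 9 libraries and this many candidates, high values are reached by many genes. Likeness in this measure leaves the genotype difference out. Tyrobp averaged 69631 for fl/fl against 74563 for Mye-/-, with a log2 fold change of 0.11 against -0.84 for lysozyme.

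Other genes of classical monocytes, 24 in a list that excludes the members, gave no call under limma. Under limma 10 were higher and 14 lower, 0 passed, and the median log2 fold change was -0.06 against 0.06 over all features. The median was -0.001 over the 7198 features that average at least 500 normalized reads. At an unadjusted p under 0.05 there were 3 of 24, all lower, against 4.13% of all features lower and 10.5% in either direction. Of those 7198 features, 517 were lower at that level, and 1075 counting either direction. S100a6, a calcium-binding protein, averaged 71796 ± 7349 for fl/fl (SD, n = 4) against 56589 ± 3573 for Mye-/- (SD, n = 5), without overlap (log2 fold change -0.34, limma adjusted p = 0.405, DESeq2 adjusted p = 0.0311). A separation in that direction was seen in 1 of the 24 and in 1.6% of all features tested. Mcemp1, a membrane protein of monocytes and mast cells, was at 12855 ± 2239 and 9716 ± 1446, and Napsa, an aspartic protease, at 19237 ± 2609 and 15665 ± 840. Ccr2, the chemokine receptor that brings classical monocytes into tissue, was named outside the rule for its role, at 22401 ± 3435 and 23921 ± 1474 (log2 fold change 0.11, limma adjusted p = 0.819). The most abundant, S100a4 and Cd14, were at 110791 ± 13114 and 104746 ± 37090 in fl/fl and 102091 ± 13112 and 91413 ± 14810 in Mye-/-.

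Genes of the later or alternative fates of monocytes gave no call either. Of 14 non-classical monocyte genes 9 were higher and 5 lower (median 0.05, 0 past the limma threshold, 1 at an unadjusted p under 0.05 against 10.5% of all features). Itgal, the LFA-1 integrin subunit, was that gene, with means of 24563 ± 5907 for fl/fl and 31056 ± 5010 for Mye-/-. Nr4a1, the nuclear receptor that non-classical monocytes need, was at 112334 ± 13595 and 131815 ± 5790. Of 18 genes of maturing recruited macrophages 12 were higher and 6 lower (median 0.03), with 0 past limma's threshold and 0 at an unadjusted p under 0.05. Among them Apoe was at 56465 ± 12731 and 73548 ± 18736, Gpnmb at 2285 ± 804 and 2915 ± 710, and Fabp5 at 1925 ± 405 and 1523 ± 136.

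Near relatives and partners of the members' products were measured beside them. Of 13 relatives 7 passed the filter, with 2 higher and 5 lower and 0 past limma's threshold (median -0.23). Tgm1, a transglutaminase related to F13a1, had an unadjusted p under 0.05, at 880 ± 137 in fl/fl and 619 ± 67.8 in Mye-/-, while Tgm2 was at 20602 ± 8145 and 22704 ± 2752. Of 15 receptors and partners 13 passed the filter, with 10 higher and 3 lower and 0 past limma's threshold (median 0.13). Itgav, an integrin subunit that binds fibronectin, was at 2277 ± 537 and 3248 ± 366 (log2 fold change 0.53, limma adjusted p = 0.291). Cd44, which binds hyaluronan, was at 10677 ± 1775 and 12033 ± 1275, and Tlr2, a receptor reported for versican, at 36868 ± 5817 and 39592 ± 3117. Cd163, the receptor for haptoglobin bound to haemoglobin, was at 0 to 226 in the 9 libraries, and Hmox1, which breaks down haem, at 29295 ± 9439 and 31304 ± 7293.

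The defining markers of resident Kupffer cells were low. Clec4f, which defines Kupffer cells in mice, was at 0 in fl/fl S1, S3 and S4, at 73.8 in S5, and at 33.3 to 603 in Mye-/- libraries, and Timd4 was listed at 0 in 8 of the 9 libraries. The summed value of the 18 Kupffer cell markers was 17030 to 29290 in fl/fl and 31377 to 43706 in Mye-/-, most of it Id1 and Id3. The sum therefore follows these 2 genes, and whether the sum of the other markers differed was not tested. Of the 14 that passed the filter 13 were higher, against 8353 of all 15288 features. Several of them were at 0 in some libraries, so the limit given for the lymphoid and dendritic markers applies here too. Limma's threshold was passed by 1, Id1 (4795 ± 975 and 9159 ± 1235), against 0.0196% of all features. At an unadjusted p under 0.05 there were 7, of which 6 were higher and 1 lower, against 10.5% of all features. DESeq2 called 2, Id1 (adjusted p = 5.28e-06) and Id3 (adjusted p = 0.00755), against 0.811% of all features. The part of resident cells in the values of the members was not tested. Ly6c2 was at 9117 or more and lysozyme at 143570 or more in every library. These values are not corrected for gene length, and which cells they came from was not tested.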

How the data were processed

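RNA was sequenced from F4/80+ CD11b+ cells of 9 libraries (4 fl/fl, 5 Mye-/-). The single table holds signal values, reads per feature that the authors divided by 1 DESeq size factor per library, per the file headers, with no log and no length correction. Gene models are FAST DB on mm10, per the file headers, and STAR 2.4.0, SAMtools, Picard and FastQC are named in the submitters' processing notes. The counter, the strand setting and the handling of reads that fit several genes are not given in the sources used here. Every nonzero value was a whole multiple of 1 step per library (100% within 0.01 reads), which gave back whole reads.

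Genotypes were compared two-sided in limma 3.58.1 (R 4.3.3), using log2(value + 1) and a trend on intensity, over 15288 features with at least 10 in at least 4 libraries, and called at 0.05 after Benjamini-Hochberg adjustment. On whole reads, edgeR 4.0.16 (TMM) called 2 features and DESeq2 1.42.0 (deposited size factors) called 124. Scripts were tested on simulated data. The members and lists were chosen with earlier results of these data known. By rule the text could name the members, the sort markers Adgre1 and Itgam, up to 4 genes with the smallest p and the 2 most abundant of each list, and the 3 most alike per member. Not all of these are printed. Ccr2, Mmp8, Ly6g, Stfa2l1, Timd4, Ly6c1 and Mgll lie outside it and were named for their role. Transcript lengths and coding sequences are from GENCODE M21. The groups share no replicate number.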

Additional observations from a re-analysis of the deposited data

Results flagged for a closer look

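In 1 member and in 6 of the other genes checked, a library stood apart from the rest of its group by Dixon's criterion. Chance meets it in about 1 in 20 groups of normally spread values. Where all other values are 0, any value meets it. A library stood apart in 8 of 102 groups tested, over 51 genes, a count that is a description and is not comparable with that rate. Chil3 was at 406822 in Mye-/- S8 against 201204 to 245744 in the other 4 Mye-/- libraries. Alb was at 7085 in Mye-/- S10 against 656 to 1201 in the other Mye-/- libraries. Clec4f was at 603 in Mye-/- S10 against 33.3 to 143, and at 73.8 in fl/fl S5 against 0 in the other fl/fl libraries. S100a9 was at 6948 in Mye-/- S9 against 1375 to 2190. Timd4 was at 11.96 in Mye-/- S12 against 0 in the other Mye-/- libraries. Ly6c1 was at 5.24 in fl/fl S4 against 0.879 to 1.19, and Ly6g was at 1.19 in fl/fl S3 against 0, both only a few reads.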

How the results depend on the processing

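No paired analysis was possible because the groups share no replicate number. Of the alternative fits 3 were chosen after seeing the data (those without 2 libraries together, and detected features as a covariate), as was the length of 1 lysozyme gene alone. The count of member features called stayed at 0 in 24 of 25 alternatives and was 2 with DESeq2. Lysozyme, Hp and Ly6c2 stayed lower in all 25, with an unadjusted p under 0.05 in 24, 22 and 13. The count over all features, 3 as reported, was 17 with a pseudocount of 8, 6 with TMM, 8 with quantile normalization, 21 without a trend, 9 with a robust trend, 5 with array weights, 124 with DESeq2 (58 higher, 66 lower), and 9 without fl/fl S1 and S3. It was 0 with age in the model, in the 11-week-old subset and with detected features as a covariate, and 0 to 20 when each library was left out. The cause was not tested. The sign of 5 members turned. In the model with age, and in the 11-week-old subset, the log2 fold change was 0.0593 for Fn1, 0.0794 for F13a1, 0.23 for Vcan and 0.23 for Chil3. By the design these fits share their log2 fold changes, so for size and sign they are 1 check, though both are counted among the 25. Without fl/fl S3 and Mye-/- S10 it was 0.14 for F13a1, 0.0386 for Vcan and 0.22 for Chil3. Without fl/fl S1 and S3 it was 0.11 for Chil3 and -0.0318 for Plac8, and for Chil3 it was 0.15 with quantile normalization and 0.16 with detected features as a covariate. When each library was left out it ran from -0.40 to 0.0155 for F13a1, -0.32 to 0.15 for Vcan, -0.22 to 0.16 for Chil3, -0.29 to -0.11 for Fn1 and 0.09 to 0.28 for Plac8. The members had at least 2483 reads in every library, and the effect of depth was not tested.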
